A study of Arabidopsis thaliana with 90 samples.

Results

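The genes of flavonoid and anthocyanin synthesis, 10 in number, were followed through the whole series. They were chosen by name from the raw count table, 10 of the 28775 genes listed. They are CHS (AT5G13930), CHI (AT3G55120), F3H (AT3G51240), F3'H (AT5G07990), FLS1 (AT5G08640), DFR (AT5G42800), LDOX (AT4G22880), MYB12 (AT2G47460), MYB111 (AT5G49330) and PAP1 (AT1G56650). Whole Arabidopsis seedlings, 4 days old, gave poly(A) RNA for 90 libraries. There were 30 groups of 3, made up of 5 lines, 2 temperatures (27 and 17 °C) and darkness, 1 h or 24 h of red light (R) at 50 µmol m−2 s−1. All lines are in the Ler ecotype and carry the mutant alleles phyA-201 and phyE-1, so no group, the dark controls included, has functional phyA or phyE, and no wild-type seedling is among them. PHYD-YFP/abcde carries PHYD-YFP, driven by the constitutive 35S promoter, in the quintuple mutant with phyB-1, phyC-1 and phyD-1 in addition. It is 1 line, selected for its high transgene expression, and PHYD-YFP/abCde was made by crossing the same transgene into the background with intact phyC. In aBcde, with phyC-1 and phyD-1 mutant, phyB is the sole functional phytochrome. PHYB-CFP/abcde carries PHYB-CFP under the PHYB promoter in the quintuple mutant, and the line labelled PHYB-CFP, PHYD-YFP/abcde carries both transgenes there.

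Flavonoids are made from phenylalanine by way of coumaroyl-CoA. Chalcone synthase (CHS), chalcone isomerase (CHI), flavanone 3-hydroxylase (F3H) and flavonoid 3'-hydroxylase (F3'H) form the early part of the path. Flavonol synthase (FLS1) then leads to the flavonols, whereas dihydroflavonol reductase (DFR) and leucoanthocyanidin dioxygenase (LDOX) lead to the anthocyanins. In Arabidopsis, the MYB proteins MYB12 and MYB111 activate the early and flavonol genes, and PAP1, a MYB that acts with bHLH partners, activates the late, anthocyanin-specific genes. The path is well known to respond to light, in part through the bZIP factor HY5, which binds ACGT elements such as the G-box.

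The upstream sequences of 4 members are shown because they hold this G-box (CACGTG) ahead of the annotated start. The members are the entry enzyme CHS, the early enzyme F3H, the anthocyanin enzyme DFR and the activator MYB12. FLS1, the enzyme of the flavonol branch, held no G-box in the stretch searched and is not shown. The sequences are the 250 bases before the start of each gene, taken from the RefSeq annotation of TAIR10.1 and given 5′ to 3′ on the strand of the gene. Capitals mark the G-box and every other ACGT, which reads the same on both strands. The last base of DFR, also a capital, is the first of a match to the MYB element ACCAACC on the opposite strand, which runs over the start. They lie at chr5:4488226-4488475, plus strand (CHS), chr3:19024942-19025191, plus strand (F3H), chr5:17166033-17166282, minus strand (DFR) and chr2:19476076-19476325, plus strand (MYB12).
CHS: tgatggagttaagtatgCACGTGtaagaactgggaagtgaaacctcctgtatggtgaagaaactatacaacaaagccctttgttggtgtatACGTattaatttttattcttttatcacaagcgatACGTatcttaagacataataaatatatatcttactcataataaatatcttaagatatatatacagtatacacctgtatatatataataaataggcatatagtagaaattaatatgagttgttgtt
F3H: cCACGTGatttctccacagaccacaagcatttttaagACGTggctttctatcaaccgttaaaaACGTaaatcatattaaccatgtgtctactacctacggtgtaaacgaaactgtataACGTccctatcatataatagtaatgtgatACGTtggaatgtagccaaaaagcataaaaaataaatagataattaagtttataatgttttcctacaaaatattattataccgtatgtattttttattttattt
DFR: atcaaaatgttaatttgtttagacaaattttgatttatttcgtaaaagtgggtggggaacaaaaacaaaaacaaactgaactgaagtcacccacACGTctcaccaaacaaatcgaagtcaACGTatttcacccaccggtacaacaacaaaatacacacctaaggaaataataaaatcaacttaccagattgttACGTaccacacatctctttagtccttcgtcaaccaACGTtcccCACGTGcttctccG
MYB12: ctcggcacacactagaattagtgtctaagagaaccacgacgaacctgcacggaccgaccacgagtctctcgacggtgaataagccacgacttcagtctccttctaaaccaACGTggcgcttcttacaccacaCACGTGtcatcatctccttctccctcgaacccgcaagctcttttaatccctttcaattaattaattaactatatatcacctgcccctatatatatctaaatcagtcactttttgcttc
From 250 bases before to 50 after the start, 5 of the 10 members held a G-box, and so did 7.79% of all 26709 promoters of that length. The first base of the G-box lay at position -233 in CHS, -249 in F3H, -14 and 10 in DFR, -118 in MYB12 and 40 in CHI, counted from the first base of the gene. An ACGT, which includes every G-box, was found in 8 of 10 members, against 50.1% of all promoters. The MYB element ACCAACC was found on either strand in 1 member (DFR) and in 3.31% of all promoters, and ACCTACC in 0 members and 1.37% of all promoters. These matches describe the letters only: no binding was measured.

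The libraries held 15010386 to 41124234 reads counted on genes (median 17751738). Levels are in CPM, the count of a gene scaled to a common library size by TMM. At this depth 7 of the 10 members passed the count filter (at least 5 counts in at least 25%, or 23, of the libraries) and were tested among 20695 genes. PHYD ran from 3850 to 37500 CPM in the 54 libraries of the 3 lines with PHYD-YFP and from 11.8 to 588 CPM in the other 36, and PHYB from 195 to 1640 CPM in the 36 libraries with PHYB-CFP and from 47.8 to 179 CPM in the other 54. PHYC had a median of 40.8 CPM in PHYD-YFP/abCde, within the 37.7 to 44.5 CPM of the lines with phyC-1. Its level therefore cannot check which line has intact phyC. The 588 CPM of PHYD belong to aBcde at 27 °C after 24 h R, replicate 1, against a median of 17.7 CPM in aBcde. The third library of PHYD-YFP/abCde for 1 h R at 17 °C also stood apart: its log2 CPM had r = 0.935 with the mean of the other libraries of its group, where the median over all 90 libraries was 0.982, and it lay nearest to aBcde of the same temperature and time. Root, epidermis, phloem and green-tissue markers were present in these whole seedlings, and neither of the flower markers AP1 and AG reached 1 CPM. The labels do not say whether the replicates came from separate cultures, so the p-values measure the spread between these libraries, which may be technical. In bulk RNA, fewer cells of a type and less RNA per cell cannot be told apart.

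The members differed widely in level. Per kb of exon, the highest group mean was 36.0 CPM for CHS, 12.1 CPM for CHI, 7.47 CPM for FLS1, 6.504 CPM for DFR, 5.08 CPM for LDOX, 3.35 CPM for F3'H, 2.399 CPM for MYB111, 2.37 CPM for PAP1 and 0.793 CPM for MYB12. F3H was listed with 1 count over all 90 libraries, and it is reported at that level only. Its span overlaps the antisense RNA AT3G51238, which was listed at 0 counts in every library; the strand setting of the counting is not given in the sources used here, and the part of this overlap in the low value was not tested. CHS overlaps AT5G13940 on the other strand, which had 129 counts over all libraries and at most 10 in one, against 17 to 1258 counts of CHS per library. DFR had 5 or more counts in 17 libraries and LDOX in 16, so both were tested only in a fit without the filter, over 25658 genes. Since they would have passed only through the group where they were high, their counts are given first and the tests after them. PAP1 and MYB12 passed the filter with 26 and 23 libraries of 5 or more counts, where 23 were needed, and 14 and 12 of these libraries were of 24 h R at 17 °C, so that neither would have passed without that condition. Their differences from that condition are therefore a description. In the fit with the filter, counts of members are given with and without them where either was called. The other 5 tested members had 5 or more counts in 81 to 90 libraries.

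The anthocyanin enzymes DFR and LDOX were counted almost only after 24 h R at 17 °C. Over the 15 libraries of each condition, DFR had 16 counts in darkness, 18 after 1 h R and 13 after 24 h R at 27 °C, and 9, 5 and 998 counts in that order at 17 °C. LDOX, which acts after DFR, had 0, 5 and 20 counts at 27 °C and 0, 10 and 819 counts at 17 °C. It was at 0 in all 30 dark libraries.

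The levels after 24 h R at 17 °C are given by line. DFR was at 11.7, 9.03 and 8.97 CPM in PHYB-CFP, PHYD-YFP/abcde, at 3.52, 5.35 and 5.05 CPM in PHYD-YFP/abCde, at 3.54, 3.02 and 3.496 CPM in PHYD-YFP/abcde, at 1.34, 1.55 and 1.39 CPM in aBcde, and at 0.845, 0.470 and 0.219 CPM in PHYB-CFP/abcde. LDOX took the same order of lines, from 10.1, 6.12 and 5.11 CPM in PHYB-CFP, PHYD-YFP/abcde through 3.06, 3.29 and 4.79 CPM in PHYD-YFP/abCde, 3.10, 3.47 and 2.71 CPM in PHYD-YFP/abcde and 2.01, 1.26 and 2.3 CPM in aBcde to 0.121, 0.646 and 0.328 CPM in PHYB-CFP/abcde. Both PHYD-YFP lines without PHYB-CFP overlapped for LDOX and, by 1 library each, for DFR, and every other neighbouring pair of lines in this order was apart for both genes. Differences between lines in these 2 genes were tested as 24 h responses, without the filter, for 4 pairs of lines, and none passed at either temperature (lowest adjusted p = 0.827 for DFR, and 1 for LDOX), nor did any have an unadjusted p under 0.05. The dark counts that enter these differences were at or near 0, so these tests cannot decide whether the lines differed. The levels after 24 h R themselves were not tested between lines.

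Against the dark controls at 17 °C, DFR rose in all 5 lines in the fit without a filter. In PHYB-CFP, PHYD-YFP/abcde it had 460 counts after 24 h R against 1 in darkness, a ratio of 458 (95% counting interval 81.9 to 18100, adjusted p = 9.18e-07), and in PHYD-YFP/abcde 182 against 1, a ratio of 172 (30.5 to 6840, adjusted p = 0.000145). In PHYD-YFP/abCde it had 256 counts against 5, a ratio of 53.7 (22.7 to 167, adjusted p = 6.55e-05). In aBcde it had 74 counts against 2, a ratio of 39.5 (10.6 to 332, adjusted p = 0.000781). PHYB-CFP/abcde had 26 counts against 0, at least 9.3-fold higher than the floor of 3 counts over the dark group (adjusted p = 0.00543). LDOX, with no count in darkness, was at least 111-fold higher in PHYB-CFP, PHYD-YFP/abcde, 72.0-fold in PHYD-YFP/abCde, 52.0-fold in PHYD-YFP/abcde, 34.2-fold in aBcde and 6.8-fold in PHYB-CFP/abcde, with adjusted p between 2.05e-06 and 0.0107. The intervals and floors cover counting error only. All p-values given here are edgeR quasi-likelihood values with Benjamini-Hochberg adjustment over all genes tested.

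At 27 °C the same 24 h of R gave no such levels. DFR had 0 to 6 counts per group at 27 °C, against 26 to 460 at 17 °C after 24 h R, and fell in all 5 lines: at least 158-fold in PHYB-CFP, PHYD-YFP/abcde, 96.5-fold (26.3 to 803) in PHYD-YFP/abcde, 79.7-fold (30.8 to 295) in PHYD-YFP/abCde, 26.2-fold (4.31 to 1080) in PHYB-CFP/abcde and 16.2-fold (7.09 to 45.5) in aBcde, with adjusted p between 2.09e-07 and 0.0109. LDOX fell at 27 °C in 4 lines, by 171-fold (47.1 to 1420) in PHYB-CFP, PHYD-YFP/abcde, 85.5-fold (28.9 to 418) in PHYD-YFP/abCde, at least 58.3-fold in PHYD-YFP/abcde and 18.0-fold (8.40 to 45.9) in aBcde. In PHYB-CFP/abcde it had 8 counts at 27 °C and 19 at 17 °C (adjusted p = 0.406). The 24 h response of DFR itself differed between 27 and 17 °C in PHYD-YFP/abcde (adjusted p = 0.0375) and in PHYB-CFP, PHYD-YFP/abcde (adjusted p = 0.000602), where in the fit without a filter 0.557% and 3.25% of all genes were called. The adjusted p was 0.18 in PHYD-YFP/abCde, 0.134 in aBcde and 1 in PHYB-CFP/abcde (5.56%, 4.49% and 4.07% of all genes called). That of LDOX had an adjusted p of 1 in every line, with all dark groups at 0, so this test cannot decide whether its response differed.

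PAP1, the activator of these late genes, also had its highest counts after 24 h R at 17 °C. At 17 °C it was, after 24 h R, at 2.27, 2.38 and 3.25 CPM in PHYD-YFP/abcde, 1.68, 1.11 and 1.22 CPM in PHYD-YFP/abCde, 1.17, 0.230 and 1.33 CPM in aBcde, 2.29, 0.999 and 0.546 CPM in PHYB-CFP/abcde and 2.93, 1.14 and 1.104 CPM in PHYB-CFP, PHYD-YFP/abcde. The highest of the 15 dark libraries at 17 °C had 0.773 CPM. Irradiated and dark libraries were apart in each line, and PAP1 rose in 4 of the 5, with a log2 fold change (± SE) of 3.85 ± 1.07 in PHYD-YFP/abcde (adjusted p = 0.0107), 3.55 ± 1.19 (adjusted p = 0.0127) in aBcde, 4.03 ± 1.18 (adjusted p = 0.00809) in PHYB-CFP/abcde and 2.71 ± 1.03 (adjusted p = 0.033) in PHYB-CFP, PHYD-YFP/abcde. In PHYD-YFP/abCde the value was 1.97 ± 0.984 (adjusted p = 0.119). PAP1 fell after 24 h R at 27 against 17 °C in all 5 lines, with log2 fold changes between -4.83 ± 1.29 in PHYB-CFP/abcde and -2.47 ± 1.01 in PHYB-CFP, PHYD-YFP/abcde and adjusted p between 0.00172 and 0.0375. At 27 °C after 24 h R it had 18 counts in PHYD-YFP/abcde and 15 each in PHYD-YFP/abCde and PHYB-CFP, PHYD-YFP/abcde, against 0, 2 and 0 counts in darkness, and the rise passed the test in the last of these lines alone (adjusted p = 0.0291), against 0.0609 in PHYD-YFP/abcde. The call in PHYB-CFP, PHYD-YFP/abcde at 27 °C was lost with the replicate block (adjusted p = 0.0510). It was also lost without the libraries numbered 1, 2 or 3 (adjusted p = 0.112, 0.107 and 0.178). PAP1 rests on at most 66 counts in a library. It would not have passed the filter without the 24 h libraries at 17 °C, so its differences from them are a description. Each of the 4 rises at 17 °C lost its call without the libraries of at least 2 of the 3 replicate numbers (adjusted p of 0.0526 to 0.216), and of the 5 falls at 27 °C only that in PHYB-CFP/abcde kept its call without each number in turn. In the fit without a filter the rise in PHYB-CFP, PHYD-YFP/abcde at 17 °C (adjusted p = 0.0738) and the falls in PHYD-YFP/abCde (0.0563) and PHYB-CFP, PHYD-YFP/abcde (0.077) were lost. Both of the calls named for PHYB-CFP, PHYD-YFP/abcde were also lost with DESeq2 (adjusted p = 0.0549 for the rise and 0.0566 for the fall).

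**Figure D1:**
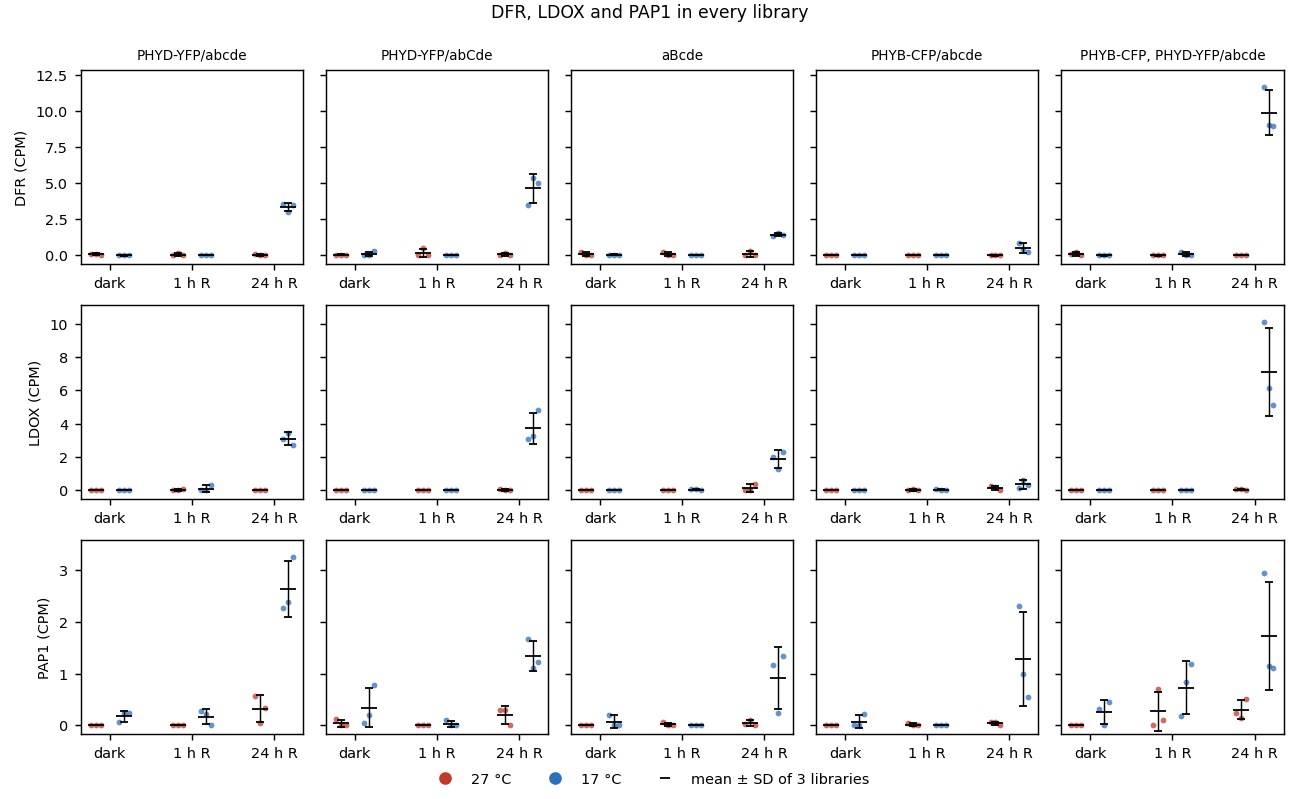
Levels (CPM, linear axis) of DFR, LDOX and PAP1 in all 90 libraries, 1 panel for each line, by time in R on the horizontal axis; points are libraries at 27 °C (red) and 17 °C (blue), with the mean and SD of 3 libraries in black. No library of another condition exceeds 0.511 CPM for DFR or 0.402 CPM for LDOX; after 24 h R at 17 °C DFR reaches 11.7 CPM and LDOX 10.1 CPM in PHYB-CFP, PHYD-YFP/abcde and both stay under 1 CPM in PHYB-CFP/abcde; PAP1 has a like pattern with more spread.

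CHS, the entry enzyme, was counted in every library, and its level in darkness already differed by temperature. In PHYD-YFP/abcde the dark libraries held 5.87, 11.6 and 3.46 CPM at 27 °C and 42.6, 29.4 and 31.9 CPM at 17 °C, which is -2.32 ± 0.468 in log2 units (SE, adjusted p = 2.41e-05). In PHYD-YFP/abCde they held 8.41, 5.24 and 9.06 CPM at 27 °C and 29.4, 41.0 and 35.1 CPM at 17 °C, a log2 fold change of -2.21 ± 0.466 (adjusted p = 4.09e-05). The temperatures did not overlap in either line. CHS also fell at 27 °C in the dark in PHYB-CFP, PHYD-YFP/abcde, to 4.59 ± 1.65 CPM (SD, n = 3), against 15.4 ± 4.26 CPM at 17 °C, and in aBcde, to 2.87 ± 0.620 CPM, against 6.80 ± 0.693 CPM at 17 °C, with log2 fold changes of -1.74 ± 0.484 (adjusted p = 0.00200) and -1.24 ± 0.516 (adjusted p = 0.0371). In PHYB-CFP/abcde it was 3.67 ± 1.51 CPM at 27 °C and 6.98 ± 0.836 CPM at 17 °C (log2 fold change -0.93 ± 0.494, adjusted p = 0.109).

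FLS1, the enzyme of the flavonol branch, fell with CHS in darkness at 27 °C in 3 lines. It held 0.908, 1.37 and 1.04 CPM at 27 °C and 4.45, 4.20 and 4.92 CPM at 17 °C in PHYD-YFP/abcde, a log2 fold change of -2.03 ± 0.586 (adjusted p = 0.00260). The changes in PHYD-YFP/abCde (-2.02 ± 0.595) and PHYB-CFP, PHYD-YFP/abcde (-2.25 ± 0.639) were of like size, with adjusted p = 0.00276 and 0.00245, and no temperatures overlapped. In aBcde and PHYB-CFP/abcde the log2 fold changes were -0.65 ± 0.708 and -1.52 ± 0.671 (adjusted p = 0.449 and 0.0515), at levels under 2 CPM at both temperatures. MYB111, an activator of FLS1 and CHS, fell in PHYB-CFP/abcde, where it held 0.515, 0.320 and 0.0504 CPM at 27 °C and 0.767, 2.03 and 1.64 CPM at 17 °C (log2 fold change -2.30 ± 0.778, adjusted p = 0.0105). MYB12 and PAP1 had 1 and 2 counts over the 15 dark libraries at 27 °C, against 41 and 48 at 17 °C.

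Counted over the 7 tested members in darkness, 3 fell at 27 °C in PHYD-YFP/abcde (14.3% of all tested genes were called lower in this comparison), 2 in PHYD-YFP/abCde (16.6%), 3 in aBcde (15.5%), 1 in PHYB-CFP/abcde (14.1%) and 5 in PHYB-CFP, PHYD-YFP/abcde (13.3%), and 0 rose in any of the lines. A gene was called where its adjusted p was under 0.05 and it changed 2-fold or more. Without MYB12 and PAP1, 10 of the 14 calls were left, 2, 2, 2, 1 and 3 of 5 members in that order. The median log2 fold change of these 5 members lay between -1.38 and -0.65, and that of all tested genes between -0.0039 and 0.0252. Leaving out all libraries numbered 1, 2 or 3 in turn, which leaves 2 a group, the 14 calls over the 5 lines became 9, 6 and 10, of which 8, 6 and 10 were among the 14. CHS kept its call in each of these 3 fits in the lines with PHYD-YFP, and FLS1 in those of them without intact phyC. Every other call was lost in at least 1 of them. With limma, CHS and CHI in aBcde, F3'H in PHYB-CFP, PHYD-YFP/abcde and each call of MYB12 and PAP1 were lost. CHI, which forms the flavanone ring, fell in aBcde, to 1.84, 3.01 and 3.04 CPM at 27 °C, against 4.76, 8.52 and 5.02 CPM at 17 °C (log2 fold change -1.21 ± 0.322, adjusted p = 0.00110), and F3'H, which sets the hydroxylation of the B ring, fell in PHYB-CFP, PHYD-YFP/abcde, to 2.83, 2.47 and 3.02 CPM, against 8.96, 4.20 and 5.01 CPM (log2 fold change -1.13 ± 0.283, adjusted p = 0.000646).

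The temperature difference after 24 h R passed the test for CHS in 4 lines and not in the other. CHS held 2.90, 5.85 and 2.91 CPM at 27 °C and 29.8, 32.8 and 25.3 CPM at 17 °C in PHYB-CFP, PHYD-YFP/abcde, a log2 fold change of -2.93 ± 0.497 (adjusted p = 1.16e-06). In aBcde it held 4.10, 2.33 and 2.88 CPM at 27 °C and 17.1, 19.8 and 23.2 CPM at 17 °C (-2.65 ± 0.491, adjusted p = 5.5e-06). CHS also fell in PHYB-CFP/abcde (-1.96 ± 0.486, adjusted p = 0.000591) and PHYD-YFP/abcde (-1.37 ± 0.437, adjusted p = 0.00653). In PHYD-YFP/abCde, in contrast, it held 29.4, 22.6 and 18.9 CPM at 27 °C and 15.02, 15.6 and 17.7 CPM at 17 °C, a log2 fold change of 0.55 ± 0.439 that did not pass (adjusted p = 0.296).

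FLS1 fell with CHS after 24 h R in PHYD-YFP/abcde, aBcde and PHYB-CFP, PHYD-YFP/abcde, by log2 fold changes of -1.72 ± 0.539, -1.63 ± 0.558 and -2.27 ± 0.596 (adjusted p = 0.00563, 0.0114 and 0.00109). In PHYD-YFP/abCde it was 0.96 ± 0.542 (adjusted p = 0.135), and in PHYB-CFP/abcde -0.43 ± 0.560 (adjusted p = 0.542). MYB111 fell in aBcde, to 0.267, 0.0517 and 0.0669 CPM at 27 °C, against 0.727, 1.84 and 0.847 CPM at 17 °C (log2 fold change -2.88 ± 0.839, adjusted p = 0.00298), and in PHYB-CFP, PHYD-YFP/abcde (-1.89 ± 0.762, adjusted p = 0.0337). MYB12 fell in PHYD-YFP/abCde, with 0.0300, 0 and 0 CPM at 27 °C and 1.16, 0.334 and 1.89 CPM at 17 °C (adjusted p = 0.00162), and in PHYD-YFP/abcde, with 0 counts at 27 °C and 0, 7 and 5 counts at 17 °C (adjusted p = 0.0361). MYB12, like PAP1, would not have passed the filter without the 24 h libraries at 17 °C, so the falls of both genes are a description. In all, 4 of 7 tested members fell at 27 °C after 24 h R in PHYD-YFP/abcde (13.0% of all tested genes called lower), 2 in PHYD-YFP/abCde (12.5%), 4 in aBcde (13.0%), 2 in PHYB-CFP/abcde (11.0%) and 4 in PHYB-CFP, PHYD-YFP/abcde (12.3%), and 0 rose. Without MYB12 and PAP1, 9 of the 16 calls were left, 2, 0, 3, 1 and 3 of 5 members in that order. The median log2 fold change of these 5 members was -1.002, 0.37, -1.63, -0.40 and -1.89 in the same order of lines, where all tested genes had medians between 0.0110 and 0.0508. The 16 calls, left with 2 libraries a group in the same way, became 10, 9 and 14, of which 9, 8 and 13 were among the 16. Those kept in each of these fits were CHS and FLS1 in PHYB-CFP, PHYD-YFP/abcde, CHS in aBcde, FLS1 in PHYD-YFP/abcde, MYB12 in PHYD-YFP/abCde and PAP1 in PHYB-CFP/abcde. With limma, MYB111 in PHYB-CFP, PHYD-YFP/abcde (adjusted p = 0.0699) and MYB12 in PHYD-YFP/abcde (0.174) were lost. Without the count filter, which brings in DFR, LDOX and F3H, 6, 3, 6, 3 and 5 of the 10 members fell in that order, against 11.3%, 10.5%, 11.3%, 9.06% and 10.4% of all genes called lower.

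Markers of 3 lists moved with temperature or with light in the same libraries. Of the epidermis markers, both ATML1 and PDF1 were above 1 CPM, and their summed level was 149 to 245 CPM at 27 °C and 453 to 730 CPM at 17 °C in darkness, and 194 to 339 CPM at 27 °C and 389 to 619 CPM at 17 °C after 24 h R. The 2 green-tissue markers RBCS1A and LHCB1.3 summed to 602 to 2130 CPM at 27 °C and 6760 to 12000 CPM at 17 °C in darkness. After 24 h R their median sum was 15000 CPM at 27 °C, against 1140 CPM in darkness, and 21800 CPM at 17 °C, against 8860 CPM in darkness. The sums after 24 h R overlapped between temperatures, at 2650 to 19400 CPM at 27 °C and 12400 to 32100 CPM at 17 °C. The seed and embryo markers CRA1 and OLEO1 had a median sum of 221 CPM at 27 °C and 42.7 CPM at 17 °C in darkness, and of 69.7 CPM at 27 °C and 4.81 CPM at 17 °C after 24 h R. Their sums overlapped widely between temperatures. In darkness they were 20.3 to 1260 CPM at 27 °C and 0.231 to 245 CPM at 17 °C. After 24 h R they were 1.74 to 634 CPM at 27 °C and 0.578 to 142 CPM at 17 °C. The 4 root markers summed to 77.9 to 109 CPM at 27 °C and 92.2 to 127 CPM at 17 °C in darkness. This sum is mostly SHR and SCR, since WER and PLT1 reached at most 5.46 and 7.91 CPM in any library. In darkness 4 root markers reached 1 CPM in some library at 17 °C, and 3 did so at 27 °C. Of the 4 markers of the seed coat, where flavonoids also accumulate, AHA10 alone reached 1 CPM. The part of these tissues in the temperature and light differences of the members was not tested.

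**Figure D2:**
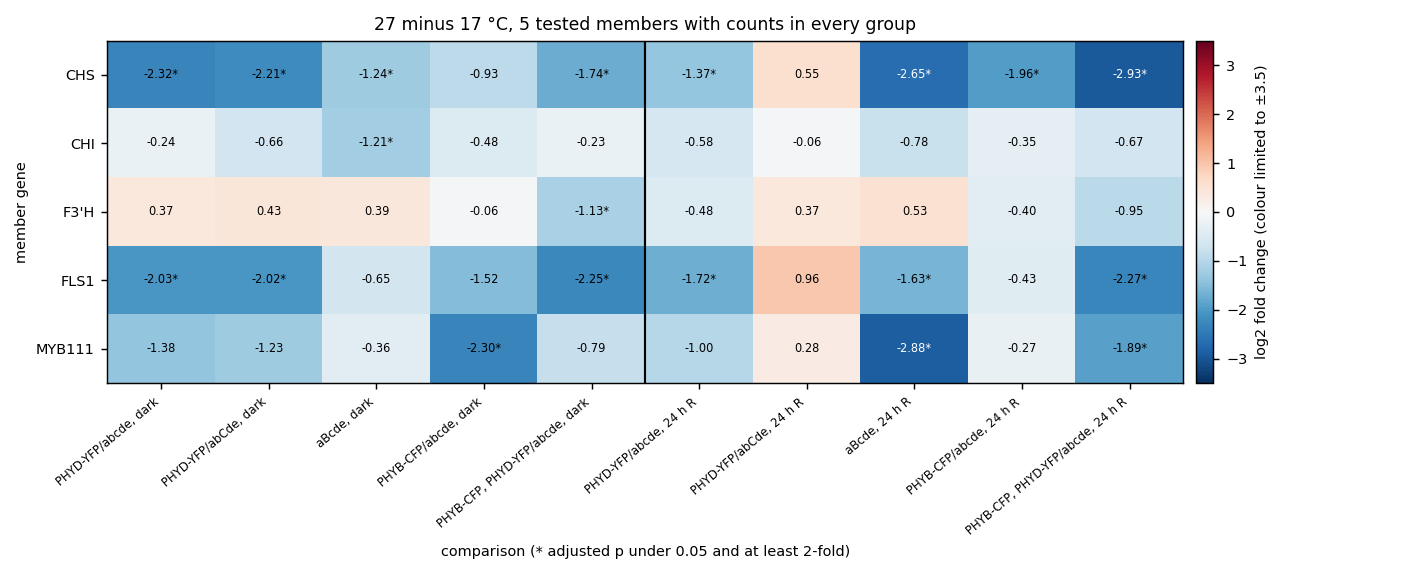
Log2 fold changes at 27 against 17 °C in darkness (left of the line) and after 24 h R (right) for the 5 tested members with counts in every group; columns are the 5 lines, colour and printed number give the log2 fold change, and an asterisk marks an adjusted p under 0.05 with at least a 2-fold change. CHS is negative in 9 of the 10 columns and 0.55 in PHYD-YFP/abCde after 24 h R, and FLS1 is likewise negative in 9 and 0.96 in that column.

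After 1 h R few members were called. At 17 °C, 0 of the 7 tested members were called in any line by edgeR, where 0.0338% of all tested genes were called in PHYD-YFP/abcde, 1.38% of them in PHYD-YFP/abCde, 7.69% in aBcde, 0.362% in PHYB-CFP/abcde and 0.585% in PHYB-CFP, PHYD-YFP/abcde. At an unadjusted p under 0.05 there were 0, 1, 3, 0 and 0 members in the same order, DESeq2 called 0, and limma on quantile-normalized values 1. The 3 in aBcde were CHI (log2 fold change -0.69 ± 0.313), F3'H (0.65 ± 0.278) and MYB111 (-1.88 ± 0.879), with adjusted p = 0.103, 0.0814 and 0.113. The median log2 fold change of the 5 members other than MYB12 and PAP1 was -0.998 in aBcde and lay between -0.44 and 0.58 in the other lines, where that of all tested genes was between 0.0042 and 0.0337. In PHYD-YFP/abCde, CHS was at 36.6, 29.1 and 3.04 CPM after 1 h R and 29.4, 41.0 and 35.1 CPM in darkness. The value of 3.04 CPM belongs to replicate 3, the library that stood apart, and without it the count of members called was still 0.

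After 1 h R at 27 °C, CHS rose in 3 lines. In PHYB-CFP, PHYD-YFP/abcde it held 18.4, 19.5 and 21.8 CPM after 1 h R and 3.73, 6.497 and 3.54 CPM in darkness, a log2 fold change of 2.11 ± 0.482 (adjusted p = 0.00117), with no overlap. In PHYD-YFP/abcde it held 39.0, 25.2 and 10.3 CPM after 1 h R and 5.87, 11.6 and 3.46 CPM in darkness (1.85 ± 0.465, adjusted p = 0.0360), and in PHYB-CFP/abcde 15.3, 13.5 and 3.83 CPM after 1 h R and 4.84, 4.21 and 1.97 CPM in darkness (1.57 ± 0.482, adjusted p = 0.0346). In both of these lines replicate 3 after 1 h R lay within the dark range. FLS1 rose in PHYB-CFP, PHYD-YFP/abcde, to 1.72, 2.67 and 2.92 CPM after 1 h R, against 0.484, 0.602 and 0.639 CPM in darkness (2.06 ± 0.638, adjusted p = 0.0271). These 4 calls stand as 1 of 7 members in PHYD-YFP/abcde (0.280% of all tested genes called higher), 0 in PHYD-YFP/abCde (0.0676%), 0 in aBcde (1.01%), 1 in PHYB-CFP/abcde (1.56%) and 2 in PHYB-CFP, PHYD-YFP/abcde (2.88%). Of these 4 calls 0 held without the libraries numbered 1, 1 without those numbered 2 and 3 without those numbered 3, where FLS1 lost its call (adjusted p = 0.0817). With the replicate block CHS was lost in PHYD-YFP/abcde and PHYB-CFP/abcde (adjusted p = 0.0658 and 0.069), and with limma only CHS in PHYB-CFP, PHYD-YFP/abcde was kept.

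The early genes also responded to 24 h R, in ways that varied from line to line. At 17 °C, CHS rose in aBcde, to 17.1, 19.8 and 23.2 CPM, against 6.43, 7.60 and 6.37 CPM in darkness (log2 fold change 1.56 ± 0.463, adjusted p = 0.00446). It fell in PHYD-YFP/abCde, to 15.02, 15.6 and 17.7 CPM, against 29.4, 41.0 and 35.1 CPM in darkness (-1.12 ± 0.441, adjusted p = 0.0402). The call was lost with DESeq2 (adjusted p = 0.0612), limma (0.0554), the replicate block (0.0533) and the line fitted alone (0.124). In the other lines the values were 0.82 ± 0.431 in PHYD-YFP/abcde (62.7, 59.1 and 62.0 CPM after 24 h R, the highest CHS levels of the series, against 42.6, 29.4 and 31.9 CPM in darkness), 1.16 ± 0.462 in PHYB-CFP/abcde and 0.93 ± 0.445 in PHYB-CFP, PHYD-YFP/abcde, with adjusted p = 0.236, 0.0547 and 0.0934. Irradiated and dark libraries were apart in each of the 5 lines.

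FLS1 rose in aBcde at 17 °C, to 3.97, 5.11 and 6.66 CPM after 24 h R, against 1.47, 0.307 and 0.401 CPM in darkness (log2 fold change 2.83 ± 0.608, adjusted p = 9.49e-05). In PHYD-YFP/abcde it held 12.16, 11.95 and 12.16 CPM after 24 h R, against 4.45, 4.20 and 4.92 CPM in darkness, with no overlap but an adjusted p of 0.0712 (1.42 ± 0.534). CHI rose in PHYD-YFP/abcde (1.15 ± 0.301, adjusted p = 0.00557) and in PHYB-CFP, PHYD-YFP/abcde (1.37 ± 0.310, adjusted p = 0.000237), and passed the p threshold below 2-fold in aBcde (0.95 ± 0.301, adjusted p = 0.00751) and PHYB-CFP/abcde (0.98 ± 0.308, adjusted p = 0.0127). MYB12 rose in PHYD-YFP/abCde, to 1.16, 0.334 and 1.89 CPM after 24 h R, against 0.313, 0 and 0.0552 CPM in darkness (3.14 ± 1.23, adjusted p = 0.0427). This call was lost without the filter (adjusted p = 0.0904), with DESeq2 (0.122), with the line fitted alone (0.0526) and without the libraries numbered 2 (0.131) or 3 (0.31). The rise of MYB12 is a description, since the gene would not have passed the filter without the 24 h libraries at 17 °C. F3'H and MYB111 were not called in any line. With PAP1, this made 2 of 7 tested members in PHYD-YFP/abcde (3.70% of all tested genes called in either direction), 2 in PHYD-YFP/abCde, 1 of them lower (13.2%), 3 in aBcde (18.4%), 1 in PHYB-CFP/abcde (8.79%) and 2 in PHYB-CFP, PHYD-YFP/abcde (15.1%). Without MYB12 and PAP1, 5 of these 10 calls were left, 1, 1, 2, 0 and 1 of 5 members in that order. In the fit without a filter 4, 2, 5, 3 and 3 of 10 members rose, against 2.34%, 6.86%, 9.81%, 4.40% and 8.43% of all genes called higher, and 1 (CHS) fell in PHYD-YFP/abCde, against 4.04% called lower. The 10 calls over the 5 lines became 7, 5 and 11 without the libraries numbered 1, 2 or 3, of which 5, 3 and 7 were among the 10. CHS and FLS1 in aBcde and CHI in PHYB-CFP, PHYD-YFP/abcde were kept in each. The fall of CHS in PHYD-YFP/abCde had an adjusted p of 0.16 without the libraries numbered 1 and 0.237 without those numbered 2.

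At 27 °C the 24 h response of CHS passed the test in PHYD-YFP/abcde and PHYD-YFP/abCde. Passing in some lines and not in others is no test of a difference between lines. The direct tests between pairs of lines called no member at this temperature. The direct test between temperatures called CHS in PHYD-YFP/abCde only. CHS rose in PHYD-YFP/abcde, to 18.3, 20.6 and 32.4 CPM, against 5.87, 11.6 and 3.46 CPM in darkness (1.78 ± 0.464, adjusted p = 0.00922), and in PHYD-YFP/abCde, to 29.4, 22.6 and 18.9 CPM, against 8.41, 5.24 and 9.06 CPM in darkness (1.64 ± 0.461, adjusted p = 0.00424). In aBcde, PHYB-CFP/abcde and PHYB-CFP, PHYD-YFP/abcde the log2 fold changes were 0.14 ± 0.535, 0.13 ± 0.513 and -0.26 ± 0.519, at levels of 3.10 ± 0.905, 3.99 ± 1.72 and 3.89 ± 1.70 CPM after 24 h R (SD, n = 3 each). FLS1 rose in PHYD-YFP/abCde (2.41 ± 0.595, adjusted p = 0.00109), aBcde (1.85 ± 0.662, adjusted p = 0.0223) and PHYB-CFP/abcde (2.35 ± 0.654, adjusted p = 0.00350). CHI rose in the same 3 lines, by 1.34 ± 0.313, 1.38 ± 0.320 and 1.12 ± 0.316 (adjusted p = 0.000564, 0.000365 and 0.00398). Thus 1 of 7 members rose in PHYD-YFP/abcde (3.02% of all tested genes called higher), 3 in PHYD-YFP/abCde (7.56%), 2 in aBcde (11.0%), 2 in PHYB-CFP/abcde (9.48%) and 1, PAP1, in PHYB-CFP, PHYD-YFP/abcde (9.23%). Without MYB12 and PAP1, 8 of these 9 calls were left, 1, 3, 2, 2 and 0 of 5 members in that order. Without the aBcde library with 588 CPM of PHYD, the rise of FLS1 in aBcde had an adjusted p of 0.0808, and with limma 0.0634. The 9 calls over the 5 lines became 4, 4 and 7 without the libraries numbered 1, 2 or 3, of which 4, 3 and 7 were among the 9, and only CHI in aBcde was called in each.

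**Figure D3:**
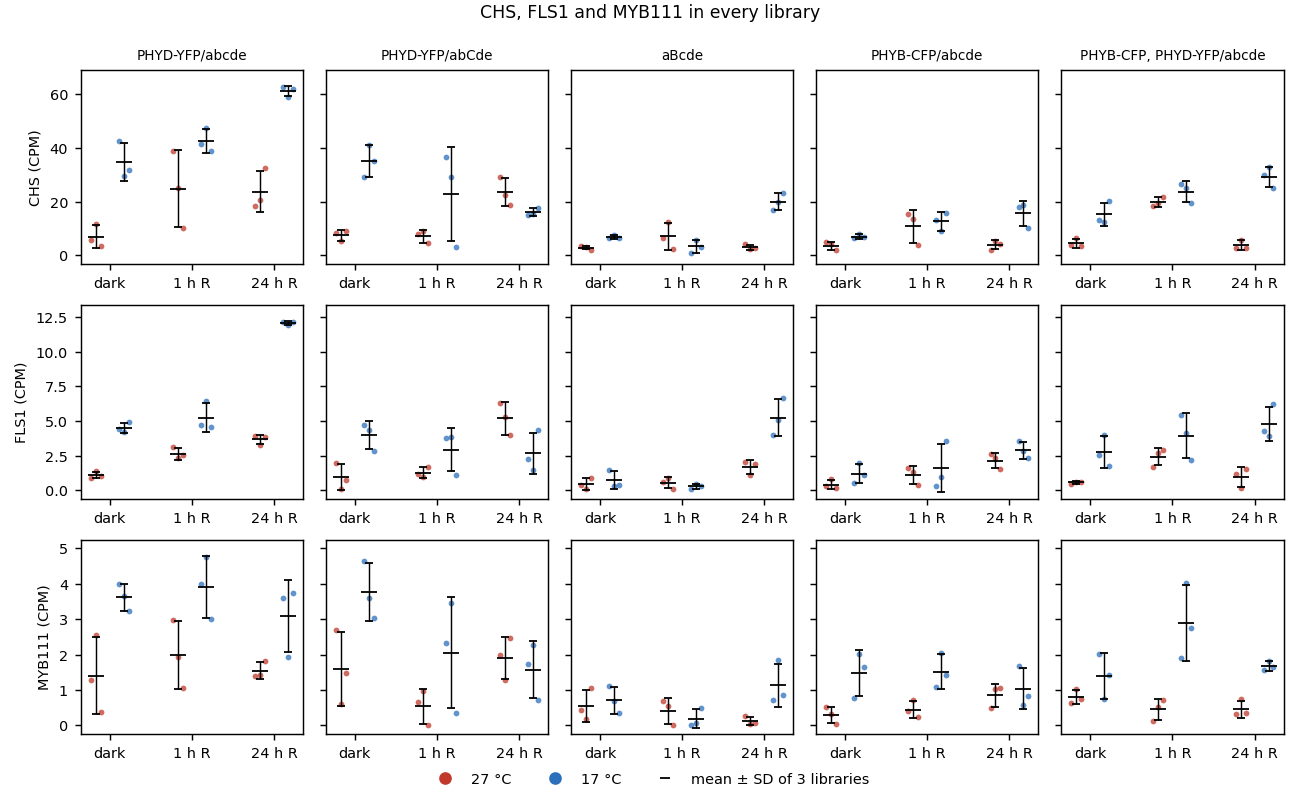
Levels (CPM, linear axis) of CHS, FLS1 and MYB111 in all 90 libraries, 1 panel for each line, by time in R on the horizontal axis; points are libraries at 27 °C (red) and 17 °C (blue), with the mean and SD of 3 libraries in black. At 17 °C, the 24 h libraries of PHYD-YFP/abcde have CHS between 59.1 and 62.7 CPM and FLS1 between 11.95 and 12.16 CPM, above every other library; in PHYD-YFP/abCde after 24 h R the 27 °C points of CHS lie above those at 17 °C.

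**Figure D4:**
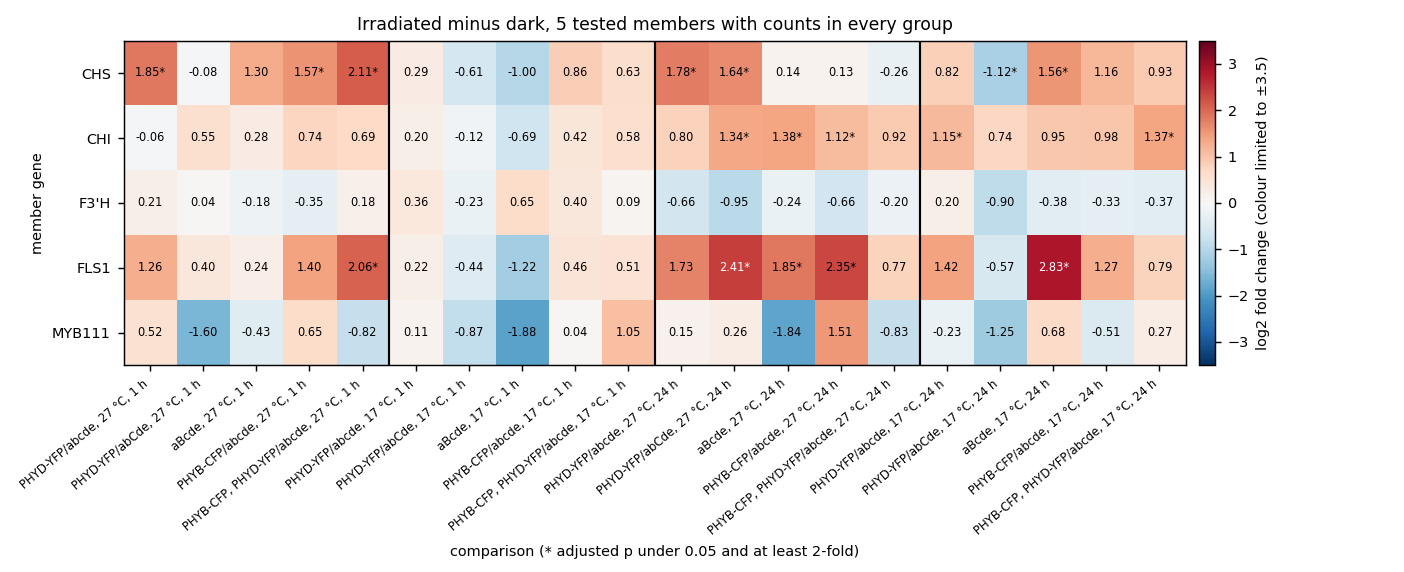
Log2 fold changes of irradiated against dark libraries for the 5 tested members with counts in every group, in 4 blocks: 1 h at 27 °C, 1 h at 17 °C, 24 h at 27 °C and 24 h at 17 °C, each with the 5 lines as columns; colour and printed number give the log2 fold change, and an asterisk marks an adjusted p under 0.05 with at least a 2-fold change. CHI is positive in all 10 columns of 24 h, from 0.74 to 1.38, whereas CHS at 17 °C after 24 h has both signs, between -1.12 in PHYD-YFP/abCde and 1.56 in aBcde.

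The 1 h and 24 h responses of a line share its dark libraries, and so do the temperature comparison in darkness and these responses, so their values are set side by side and are not independent. The difference between responses was tested directly. In PHYD-YFP/abCde the log2 fold change after 24 h R was higher at 27 than at 17 °C, with a difference of 2.77 ± 0.638 for CHS (1.64 at 27 °C and -1.12 at 17 °C, adjusted p = 0.00118) and of 2.98 ± 0.805 for FLS1 (2.41 at 27 °C and -0.57 at 17 °C, adjusted p = 0.00620). These were 2 of 7 tested members in that line, where 7.03% of all tested genes were called, and 0 of 7 in PHYD-YFP/abcde (0.739%), aBcde (5.90%), PHYB-CFP/abcde (5.08%) and PHYB-CFP, PHYD-YFP/abcde (4.26%), in which 1, 2, 0 and 0 members had an unadjusted p under 0.05. DESeq2 and limma each called 2 over the 5 lines, and with the line fitted alone FLS1 was lost (adjusted p = 0.0516). Without the libraries numbered 1, the adjusted p for CHS was 0.0517. Without those numbered 2 it was 0.0748 for CHS and 0.19 for FLS1, and without those numbered 3 both calls held.

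Between lines, the 24 h response at 17 °C was lower in PHYD-YFP/abCde than in aBcde by 2.68 ± 0.639 on the log2 scale for CHS (adjusted p = 0.00683) and by 3.40 ± 0.815 for FLS1 (adjusted p = 0.00714), 2 of 7 members with 2.14% of all tested genes called. Without the libraries numbered 2 the adjusted p was 0.139 for CHS and 0.173 for FLS1, without those numbered 1 it was 0.0716 for CHS, and in fits of the lines compared alone it was 0.0543 and 0.0524. Between PHYD-YFP/abCde, with intact phyC, and PHYD-YFP/abcde the PHYD level differed too (median 21100 and 7220 CPM), so phyC and the level of PHYD cannot be told apart. The difference of CHS in this pair was -1.95 ± 0.616 (adjusted p = 0.0506), and 0 of 7 members passed (2.69%), with 3 at an unadjusted p under 0.05. For PHYB-CFP/abcde minus aBcde (2.41%) and PHYB-CFP, PHYD-YFP/abcde minus PHYB-CFP/abcde (2.44%), 0 of 7 members passed at 17 °C and 0 had an unadjusted p under 0.05. At 27 °C, 0 of 7 passed for any of the 4 pairs (1.15%, 3.04%, 0.0870% and 0.00483% of all tested genes called), with 0, 1, 1 and 1 at an unadjusted p under 0.05.

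The dark levels of the same lines differed too. In darkness at 17 °C, PHYD-YFP/abCde exceeded aBcde for CHS (35.2 ± 5.83 CPM and 6.80 ± 0.693 CPM, SD, n = 3 each, log2 fold change 2.37 ± 0.467, adjusted p = 0.000189), FLS1 (3.98 ± 1.03 CPM and 0.724 ± 0.643 CPM, log2 fold change 2.44 ± 0.606, adjusted p = 0.00325) and MYB111 (3.76 ± 0.819 CPM and 0.708 ± 0.375 CPM, log2 fold change 2.4 ± 0.710, adjusted p = 0.0144). The libraries of the lines did not overlap for any of the 3 genes. These were 3 of 7 members, where 3.56% of all tested genes were called. Without the libraries numbered 2, CHS alone kept its call of these 3, and without those numbered 1 MYB111 lost it (adjusted p = 0.0864), as it did in the fit of the lines compared alone (0.0855). For the other 3 pairs at 17 °C (PHYD-YFP/abCde minus PHYD-YFP/abcde, PHYB-CFP/abcde minus aBcde, and PHYB-CFP, PHYD-YFP/abcde minus PHYB-CFP/abcde) 0 of 7 members passed (0.841%, 1.29% and 1.56% of all tested genes called), with 0, 0 and 2 at an unadjusted p under 0.05. At 27 °C, 0 of 7 passed for any pair (1.55%, 2.32%, 1.27% and 1.59%), with 1, 2, 0 and 0 at an unadjusted p under 0.05. CHS differed by 0.02 ± 0.430 in darkness at 17 °C between PHYD-YFP/abCde and PHYD-YFP/abcde (adjusted p = 0.993).

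F3'H varied least of the tested members. Its group means ran from 2.31 CPM (24 h R at 17 °C, PHYD-YFP/abCde) to 6.45 CPM (1 h R at 17 °C, PHYB-CFP, PHYD-YFP/abcde). It was lower after 24 h R in PHYD-YFP/abCde at 27 °C (-0.95 ± 0.277, adjusted p = 0.00570) and at 17 °C (-0.90 ± 0.284, adjusted p = 0.00986), both under 2-fold.

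Other genes of the pathway were taken from 5 lists with 53 genes, of which 40 were tested. Of these 40, after 24 h R at 17 °C, 3 rose and 1 fell in PHYD-YFP/abcde, 11 and 2 in PHYD-YFP/abCde, 10 and 1 in aBcde, 7 and 1 in PHYB-CFP/abcde, and 14 and 2 in PHYB-CFP, PHYD-YFP/abcde. Of all tested genes 2.91%, 8.18%, 12.0%, 5.60% and 10.4% were called higher in that order of lines, and 0.783%, 5.05%, 6.40%, 3.19% and 4.77% lower. The median log2 fold change of the 40 lay between 0.28 and 0.79 over the 5 lines, and that of all tested genes between 0.0001 and 0.0149. At 27 °C, 3 rose in PHYD-YFP/abcde and 0 fell, 9 and 2 in PHYD-YFP/abCde, 14 and 3 in aBcde, 9 and 4 in PHYB-CFP/abcde, and 8 and 2 in PHYB-CFP, PHYD-YFP/abcde, where 3.02%, 7.56%, 11.0%, 9.48% and 9.23% of all tested genes were called higher and 0.208%, 2.47%, 3.45%, 2.91% and 2.13% lower. UGT78D2, which glycosylates flavonols and anthocyanins at the 3 position, rose after 24 h R in all 5 lines at both temperatures, with log2 fold changes from 1.02 in PHYD-YFP/abCde at 17 °C to 3.07 in PHYB-CFP, PHYD-YFP/abcde at 17 °C. CHIL, a helper of chalcone synthase without isomerase activity, rose in 9 of the 10 comparisons, the exception being PHYD-YFP/abcde at 27 °C, with log2 fold changes up to 3.25. 4CL3, the coumarate ligase tied to flavonoids, rose in 7 of them. SAT, a sinapoyltransferase of anthocyanins, rose at 17 °C in every line but PHYD-YFP/abcde.

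Among the regulators, HY5 fell after 24 h R in 9 of the 10 comparisons, the exception being PHYD-YFP/abcde at 27 °C, with log2 fold changes between -2.07 and -1.17. Its relative HYH rose at 27 °C in all 5 lines (1.25 to 2.79). SPL9, which restrains anthocyanin synthesis, rose in 7 comparisons, and KFB-CHS, an F-box protein that marks chalcone synthase for turnover, in 6. MYBL2, a repressor of anthocyanin genes, rose in PHYD-YFP/abCde at 17 °C (1.51) and in aBcde at 27 °C (1.04). Of the 13 tested repressors and turnover factors, 6 rose and 0 fell after 24 h R in PHYD-YFP/abCde at 17 °C (8.18% of all tested genes called higher), among them SPL9, KFB-CHS and MYBL2, and 2 rose and 0 fell in aBcde at 17 °C (12.0%). The counts of the lines were not tested against each other. The difference between these responses of PHYD-YFP/abCde and aBcde was called for KFB-CHS (1.01) and MYBL2 (1.31). For PHYD-YFP/abCde minus PHYD-YFP/abcde at 17 °C, the 24 h response differed in KFB-CHS (2.01), KFB50 (1.38), MYBL2 (1.33) and LBD37 (1.17). In that pair 0 of 7 members passed. The part of these genes in the levels of the members was not tested.

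Several genes that act with DFR and LDOX could be tested only without the count filter. TT19, UGT79B1, 5MAT and TT8 had 5 or more counts in 18, 12, 11 and 5 libraries, where 23 were needed. TT19, a glutathione transferase needed for anthocyanin transport, averaged 5.06 CPM after 24 h R in PHYB-CFP, PHYD-YFP/abcde at 17 °C and had 0 counts in its dark control (adjusted p = 3.63e-05). UGT79B1 and 5MAT, which decorate anthocyanins, averaged 2.24 and 2.54 CPM in the same group, against 0 and 0.106 CPM in darkness (adjusted p = 0.000507 and 0.00572). All 3 rose in 4 of the 5 lines at 17 °C, PHYB-CFP/abcde being the exception, and all 3 were lower at 27 against 17 °C after 24 h R in the same 4 lines. TT8, the bHLH partner of PAP1, rose in PHYD-YFP/abCde (0.778 CPM after 24 h R, 0 in darkness) and in PHYB-CFP, PHYD-YFP/abcde (0.541 CPM after 24 h R, 0 in darkness), with adjusted p = 0.00235 and 0.00643.

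At 27 against 17 °C, of the 40 tested genes, 12, 12, 13, 11 and 8 fell in darkness and 6, 6, 4, 4 and 4 rose in PHYD-YFP/abcde, PHYD-YFP/abCde, aBcde, PHYB-CFP/abcde and PHYB-CFP, PHYD-YFP/abcde, where 14.3%, 16.6%, 15.5%, 14.1% and 13.3% of all tested genes were called lower and 10.6%, 13.1%, 11.1%, 9.60% and 9.17% higher. In libraries of 24 h R, 12, 8, 15, 9 and 15 fell and 6, 3, 2, 4 and 3 rose in the same order, where 13.0%, 12.5%, 13.0%, 11.0% and 12.3% of all tested genes were called lower and 11.7%, 10.2%, 11.3%, 10.9% and 10.3% higher. The median log2 fold change of the 40 lay between -0.40 and -0.06 in darkness and between -0.62 and -0.39 after 24 h R. Of the 8 entry enzymes of phenylpropanoid synthesis, all tested, 6, 5, 5, 4 and 3 fell in darkness and 0 rose, with median log2 fold changes between -1.53 and -1.03. PAL1 and PAL4, phenylalanine ammonia-lyases, fell in all 10 temperature comparisons, with log2 fold changes of -2.76 to -1.29 for PAL1 and -2.37 to -1.38 for PAL4. CHIL (-3.78 to -1.58), the WRKY factor TTG2 and MYB4 (-2.36 to -1.27), a repressor of phenylpropanoid genes, also fell in all 10. The acyltransferase 3AT2 went the other way and rose in all 10 (1.41 to 2.72).

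Across the 30 group means of log2 CPM, which share lines, dark controls and libraries, Pearson's r was 0.963 between DFR and LDOX, 0.810 between DFR and PAP1, 0.884 between CHS and FLS1 and 0.822 between CHS and MYB111, against 0.398 between CHS and DFR. Outside the members, the tested genes most like CHS were AT1G80520 (r = 0.856), AT1G55210 (0.846), AT1G48660 (0.841), PCNA2 (0.830) and AT5G62210 (0.828). Those most like DFR were MLP423 (0.892), AOC2 (0.890), CYP96A15 (0.884), AT2G34810 (0.883) and AT4G14090 (0.882), the last of which is UGT75C1, an anthocyanin glucosyltransferase of the lists. Each of these genes had a lowest group mean of -3.18 or -2.97 log2 CPM. DFR and LDOX were counted almost only after 24 h R at the lower temperature, and PAP1 had its highest counts there. The r values with DFR therefore rest mainly on that condition. They cannot decide whether the genes vary together in the other groups.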

How the data were processed

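Whole-seedling poly(A) RNA was sequenced in 90 libraries, 3 for each of 30 groups. The authors checked reads with FastQC, trimmed them, aligned them to TAIR10 with STAR and counted them per gene with HTSeq; the deposited values are raw counts, and the strand setting is not given in the sources used here. Groups came from the sample labels. The tests did not use 279 organelle genes or 627 genes of tRNA and rRNA, and kept those with 5 or more counts in 25% of the libraries. Counts were scaled by TMM and fitted as 30 group means with edgeR 4.0.16 (quasi-likelihood test, R 4.3.3, prior count 0.125). A gene was called at a Benjamini-Hochberg adjusted p under 0.05 and at least 2-fold; standard errors are the log2 fold change over the root of the F statistic. The fit was tested on simulated data, with changes placed only in genes of a mean count of at least 50. This cannot show how the fit performs for members with fewer counts, such as DFR, LDOX, PAP1 and MYB12. The text names all 10 members, the 5 genes most correlated with CHS and with DFR, and called genes of the pathway lists. The members and lists were chosen with earlier results of these data known. Alternatives used DESeq2 1.42.0, limma 3.58.1 on quantile-normalized log2 CPM, other filters, a prior count of 2, the compared lines alone, a replicate block, no fold threshold and fits without replicate 1, 2 or 3; 2 fits without a single library were added after seeing the data. Exact Clopper-Pearson intervals cover counting error only. With 3 against 3 libraries, an exact two-sided permutation test cannot go below 0.1, so none was run.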

Additional observations from a re-analysis of the deposited data

Results flagged for a closer look

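In PHYD-YFP/abCde the 24 h response of 2 members differed between the temperatures by a direct test of the difference in edgeR. The log2 fold change was higher at 27 than at 17 °C, with a difference of 2.77 ± 0.638 for CHS (SE, adjusted p = 0.00118) and of 2.98 ± 0.805 for FLS1 (adjusted p = 0.00620). With the line fitted alone the adjusted p of FLS1 was 0.0516. Without the libraries numbered 1 that of CHS was 0.0517, and without those numbered 2 it was 0.0748 for CHS and 0.190 for FLS1. For both genes the libraries after 24 h R stood above the dark ones at 27 °C. At 17 °C those of CHS stood below the dark ones, and those of FLS1 overlapped them. In darkness both genes were lower at 27 than at 17 °C in this line, and these dark levels enter the differences. After 24 h R neither gene passed the test between the temperatures.

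The 24 h response at 17 °C of the same 2 genes differed between PHYD-YFP/abCde and aBcde, with a log2 difference of -2.68 ± 0.639 for CHS (adjusted p = 0.00683) and -3.40 ± 0.815 for FLS1 (adjusted p = 0.00714). In the fit of the lines compared alone the adjusted p was 0.0543 for CHS and 0.0524 for FLS1. Without the libraries numbered 1 it was 0.0716 for CHS, and without those numbered 2 it was 0.139 for CHS and 0.173 for FLS1. Both genes were also higher in PHYD-YFP/abCde than in aBcde in darkness at 17 °C, and these dark levels enter the differences. These differences and those between temperatures share the 17 °C libraries of PHYD-YFP/abCde.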

How the results depend on the processing

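No result changed direction under any alternative. After 1 h R at 17 °C, limma called 1 member comparison, against 0, and fits without replicate 1, 2 or 3 called 0 to 1. After 1 h R at 27 °C the 4 calls became 2 with the replicate block and 1 with limma, and 0 to 4 without a replicate. After 24 h R at 17 °C the 10 calls became 18 without the count filter, which adds DFR and LDOX, and 5 at a mean count of at least 50, which leaves fewer members tested, and 5 to 11 without a replicate. After 24 h R at 27 °C the 9 calls became 5 at a mean count of at least 50 and 4 to 7 without a replicate. At 27 against 17 °C in darkness the 14 calls became 6 at a mean count of at least 50, 7 with limma, 6 to 10 without a replicate, and 13 without the PHYD-YFP/abCde library that stood apart, and after 24 h R the 16 calls became 4 at a mean count of at least 50 and 9 to 14 without a replicate. The 2 differences of the 24 h response between temperatures became 4 without the count filter, 1 at a mean count of at least 50 and 0 to 2 without a replicate, the 2 between lines became 0 with the lines compared alone and 0 to 4 without a replicate, and the 3 between lines in darkness became 1 at a mean count of at least 50 and 1 to 3 without a replicate. Of 60 single values called, 30 kept their call without replicate 1, 22 without replicate 2, 47 without replicate 3, 45 with limma, 55 with DESeq2 and 60 with a prior count of 2. Where no cause is given here, the cause was not tested.

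Libraries with the same replicate number did not deviate together: the correlation of their deviations ran from -0.153 to 0.147, with a median of -0.009, and 4 of 60 were over 0.1, so the numbers are not taken to pair the libraries. With the replicate block, 54 of 60 called values kept their call. Without either of the single libraries MYB12 no longer passed the filter, which leaves 55 of the 60 values; of these 54 kept their call without the aBcde library with high PHYD, and 55 without the PHYD-YFP/abCde library that stood apart. DFR, LDOX, MYB12 and PAP1 rest on few counts, and F3H had 1 count over all libraries, the cause of which was not tested.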
